A study of Sus scrofa with 12 samples.

Results

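Solute carriers are membrane proteins that move sugars, amino acids, peptides, ions, vitamins and metabolites across the plasma membrane and the membranes of organelles. Their genes carry a symbol of the letters SLC, a family number, the letter A and a member number, and the rule took every gene whose platform symbol follows that pattern. It found 249 genes among the 12627 genes named on either of 2 microarray designs, 228 of 11913 on the first array set and 102 of 4531 on the second. Of these, 81 were on both sets, 147 on the first only and 21 on the second only. They were grouped by family number into substrate classes, and 4 of them, SLC4A1AP, SLC7A6OS, SLC9A3R1 and SLC9A3R2, are neighbours or regulators of carriers that match the pattern without being carriers themselves.

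The blastocyst takes up nutrients through these proteins, and some of them take part in building its cavity. The trophectoderm, its outer epithelium, uses sodium-driven carriers to take up amino acids, and its ion exchangers help to move salt and water inwards. Glucose enters through facilitative carriers of the SLC2 family, whereas mitochondrial carriers of the SLC25 family exchange nucleotides, phosphate and intermediates with the cytosol.

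RNA of pig (Sus scrofa) hatched blastocysts, collected in vivo 5.5 days after insemination, was compared on each array with RNA of early blastocysts collected at 5 days. Each array set had 6 arrays, 3 with the hatched stage in the dye Cy5 and 3 with the early stage in Cy5, and arrays are called hatched-Cy5 or early-Cy5 with a number that only names them. No strain, sex or treatment is given in the labels, nor whether replicates came from separate litters or pools. Where arrays share RNA, p-values measure only a technical spread. Fewer cells of a type and less RNA per cell cannot be told apart in RNA of whole embryos.

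The deposited value is 1 log ratio per probe and array, taken as base 2. Which stage is the numerator is not given in the sources used here, so ratios are given as positive or negative and no stage is called higher. Every call takes the numerator to be the same stage in both dye orientations, which the labels do not state. A ratio holds no level, so the presence of lineage markers could not be checked. Arrays were matched into 3 pairs of opposite dyes, taking in each set the matching with the largest summed correlation of residuals. This step yields 3 pairs whatever the data, and it favours high correlations within the pairs. The first pair is hatched-Cy5 array 1 with early-Cy5 array 2 (residual correlation 0.67 and 0.66 for the 2 sets), the second pair is hatched-Cy5 array 2 with early-Cy5 array 1 (0.73 and 0.75), and the third is array 3 of both orientations (0.36 and 0.56). The labels do not say whether the arrays of a pair, or the 2 array sets, used the same RNA. Over 3817 genes, 5 of 6 arrays correlated best with the array of the same name on the other set.

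On the first array set 10 of 228 solute carrier genes passed the threshold, an adjusted p under 0.05 in limma, 5 on either side. That is 4.39% of them, and 4.75% of all 11913 genes passed, 2.38% positive and 2.38% negative. On the second array set 13 of 102 passed, 7 positive and 6 negative, which is 12.7% against 11.0% of all 4531 genes (5.27% positive and 5.72% negative). All 6 arrays lay on 1 side of 0 for 21 solute carrier genes on the first set (9.21%, against 9.24% of all genes) and for 17 on the second (16.7%, against 15.2%). These shares lay near those of all genes. The typical size of a ratio was close as well, with a median size of 0.0743 for solute carrier genes and 0.0711 for all genes on the first set, and 0.115 and 0.0892 on the second. Of the solute carrier genes 62.7% lay above 0 on the second set, against 51.2% of all genes (54.8% against 51.2% on the first), and their median ratio was 0.0430 and 0.0174 on the second and first set. In all, 19 of 249 solute carrier genes (7.63%) were called in at least 1 set, against 7.56% of all 12627 genes.

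These calls treat the 6 arrays as separate samples. When limma was fitted to the 3 averages of the pairs, 0 solute carrier genes passed on either set (smallest adjusted p = 0.0752 and 0.0620, with 19 and 23 at an unadjusted p under 0.05). A fit that took the pairs as a random block called 9 and 11 of them. The arrays lay on 2 slides per set, and on the slide with 4 arrays alone 4 passed on the first set (SLC15A1, SLC3A1, SLC7A7 and SLC36A2) and 6 on the second (SLC15A1, SLC3A1, SLC2A8, SLC10A1, SLC16A1 and SLC25A43).

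**Figure D1:**
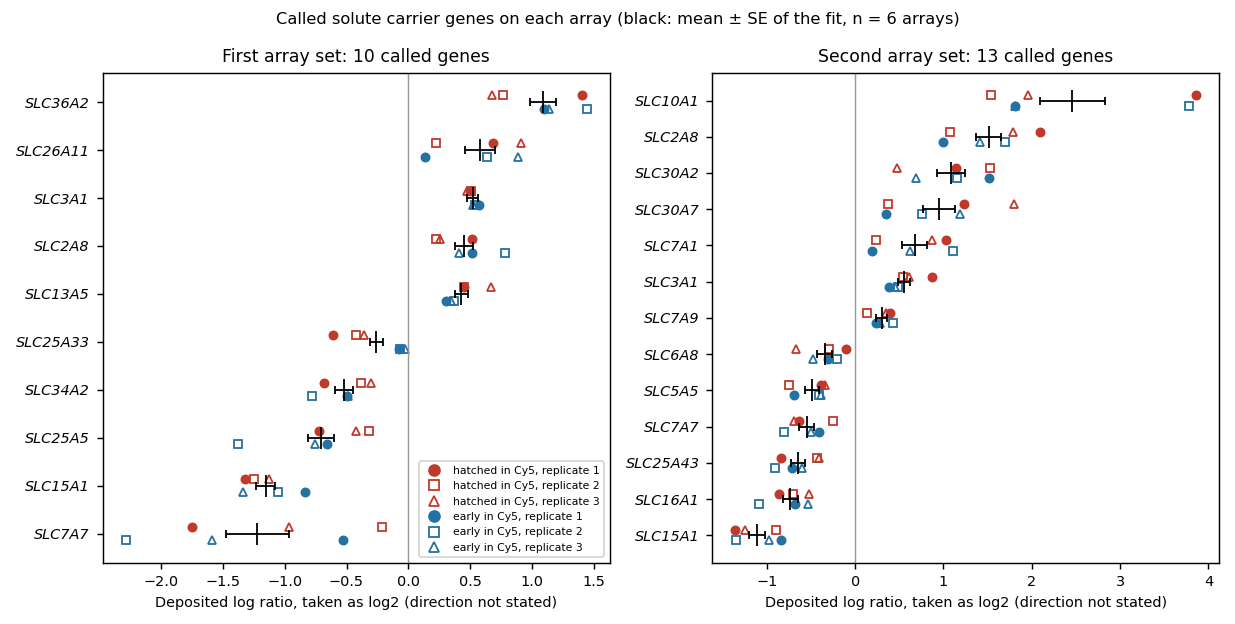
Log2 ratio (horizontal axis) of each called solute carrier gene on each of the 6 arrays, for the first array set (left, 10 genes) and the second (right, 13 genes). Red symbols are arrays with hatched blastocyst in Cy5, blue symbols those with early blastocyst in Cy5, and black bars give the mean ± SE of the fit (n = 6 arrays). All points of a gene lie on 1 side of 0, SLC3A1 on the first set between 0.47 and 0.57.

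The peptide transporter SLC15A1 (PepT1) brings small peptides into the cell together with protons and is best known from the intestine. It had the smallest p-value of all solute carrier genes on both sets. On the first array set it lay at -1.32, -1.25 and -1.13 with hatched in Cy5 and at -0.84, -1.05 and -1.34 with early in Cy5. The 2 dye orientations overlapped and all 6 arrays were negative, and the mean log2 ratio was -1.15 with an SE of 0.07 over 6 arrays (limma adjusted p = 0.000932), a 2.23-fold difference. All errors after ± below are SE over 6 arrays. The second set gave -1.36, -0.89 and -1.25 with hatched in Cy5 and -0.84, -1.35 and -0.97 with early in Cy5, and the ratio was -1.11 ± 0.09 (adjusted p = 0.00136). It kept its call when any 1 array was left out, with adjusted p up to 0.00783 on the first set and 0.00973 on the second. Its 2 probes on the second set lay at -1.95 and -0.27, the second uncalled. The other peptide transporters were not called, with SLC15A3 at -0.08 ± 0.08 (adjusted p = 0.683) and SLC15A5 at 0.08 ± 0.08 (adjusted p = 0.685) on the first set.

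Among sugar carriers SLC2A8 (GLUT8), an intracellular glucose transporter that mouse blastocysts bring to the surface in response to insulin, was positive on both sets. By the 1 probe of the second set it lay at 2.10, 1.07 and 1.79 with hatched in Cy5 and at 0.99, 1.70 and 1.42 with early in Cy5. The lowest values were those of the second pair, and the ratio was 1.51 ± 0.15 (adjusted p = 0.00196), a 2.85-fold difference. The first set gave 0.45 ± 0.07 (adjusted p = 0.0166), the mean of 3 probes at 1.35, 0.0979 and -0.10. Taking the median of the probes in place of the mean gave 0.13 (adjusted p = 0.371), and the call also ended without hatched-Cy5 array 1 (0.0625), early-Cy5 array 2 (0.0648) or hatched-Cy5 array 3 (0.0548).

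The general glucose transporter SLC2A1 (GLUT1) lay at -0.14 ± 0.06 on the first set (adjusted p = 0.332) and 0.24 ± 0.06 on the second (adjusted p = 0.0596), and SLC2A3 (GLUT3), on the second set only, at -0.16 ± 0.09 (adjusted p = 0.357). SLC37A4, which moves glucose 6-phosphate into the endoplasmic reticulum, lay at 0.37 ± 0.11 on the second set (adjusted p = 0.0866). None of these was called. The family SLC5 couples glucose, iodide or vitamins to sodium. Its member SLC5A5, the iodide pump of the thyroid, was called negative on the second set (-0.49 ± 0.08; adjusted p = 0.00905), where it ranged from -0.75 to -0.34 over the arrays and both probes agreed in side (-0.44 and -0.55). The first set put it at -0.06 ± 0.06 (adjusted p = 0.680). The sugar class was drawn by family number and so holds SLC5 members that carry other substrates. Of its 25 genes on the first set SLC2A8 alone was called, beside 4.75% of all genes. Of its 15 on the second SLC2A8 and SLC5A5 were called, beside 11.0% of all genes.

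The amino acid families had 2 positive calls and 1 negative call among 41 genes of the first set, where 4.75% of all genes were called. Of 18 on the second set 3 were called positive and 2 negative, where 11.0% of all genes were called. SLC3A1 (rBAT) is the heavy subunit that, with the light subunit SLC7A9, forms the exchanger for cystine and basic amino acids of kidney and intestine. It had the narrowest spread of the called genes on the first set, with 0.50, 0.51 and 0.47 for hatched in Cy5 and 0.57, 0.54 and 0.52 for early in Cy5, and a ratio of 0.52 ± 0.05 (adjusted p = 0.00236). On the second set it lay at 0.87, 0.54 and 0.60 with hatched in Cy5 and at 0.38, 0.48 and 0.45 with early in Cy5, a ratio of 0.55 ± 0.06 (adjusted p = 0.00306). There the dye orientations did not overlap, and the dye term did not pass (adjusted p = 0.452). Its probes split in 2 groups on both sets, at 0.978 and 0.0607 on the first and at 1.04, 1.05, 0.0464 and 0.0817 on the second.

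The light subunit SLC7A9 was called positive on the second set as well, at 0.30 ± 0.06 (adjusted p = 0.0247), with both probes at 0.30 and 0.31. On the first set it lay at 0.04 ± 0.08 (adjusted p = 0.878), with arrays from -0.40 to 0.46. The call on the second set ended with the pairs as a random block (adjusted p = 0.0640) and without any 1 of the 4 arrays outside the second pair (adjusted p from 0.0777 to 0.0948).

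SLC7A7 (y+LAT1) is the light subunit of another exchanger, which carries basic amino acids out of the cell in return for neutral ones and sodium, and its heavy subunit is SLC3A2. Its 1 probe on the first set lay at -1.75, -0.22 and -0.96 with hatched in Cy5 and at -0.53, -2.29 and -1.59 with early in Cy5. The second pair was nearest to 0 and the first pair farthest, and the ratio of -1.22 ± 0.26 (adjusted p = 0.0432) was the lowest of all solute carrier genes on that set. Its call was lost without any 1 of the 4 arrays outside the second pair (adjusted p from 0.125 to 0.163), and with robust empirical Bayes. The arrays of the second set lay between -0.80 and -0.25, the ratio was -0.55 ± 0.08 (adjusted p = 0.00775), and no array left out ended the call (adjusted p up to 0.0377). Its probes there lay at -0.90, -0.88, -0.22 and -0.19, those at -0.22 and -0.19 uncalled. SLC3A2, measured on the second set only, lay at 0.31 ± 0.09 (adjusted p = 0.0784), with 1 of 6 arrays below 0.

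SLC36A2 (PAT2), which imports glycine and proline with protons, was measured on the first set only. It lay at 1.40, 0.77 and 0.67 with hatched in Cy5 and at 1.10, 1.44 and 1.14 with early in Cy5, positive on all 6 arrays and higher on the first pair than on the others. Its ratio was 1.09 ± 0.11 (adjusted p = 0.00304), a 2.13-fold difference by 1 probe. SLC7A1 (CAT-1), the general importer of arginine and lysine, was positive on the second set at 0.68 ± 0.14 (adjusted p = 0.0258). The second pair gave 0.24 and 0.19 and the other 4 arrays between 0.62 and 1.11. Its 2 probes lay at 0.183 and 1.17, the call ended without any 1 of those 4 arrays (adjusted p from 0.0788 to 0.0972), and on the first set it lay at 0.05 ± 0.06 (adjusted p = 0.758).

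The creatine transporter SLC6A8 was negative on both sets, at -0.34 ± 0.08 on the second (adjusted p = 0.0430) and at -0.27 ± 0.07 on the first (adjusted p = 0.0885). All 6 arrays of both sets were below 0. The call on the second set ended with the pairs as a random block (adjusted p = 0.0818) and when any 1 array other than hatched-Cy5 array 1 was left out (adjusted p from 0.0669 to 0.145). SLC1A5 (ASCT2), an exchanger of neutral amino acids including glutamine, lay at 0.39 ± 0.11 on the second set (adjusted p = 0.0634) and 0.08 ± 0.07 on the first (adjusted p = 0.678), and the cystine importer SLC7A11 at 0.09 ± 0.10 on the second (adjusted p = 0.669).

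**Figure D2:**
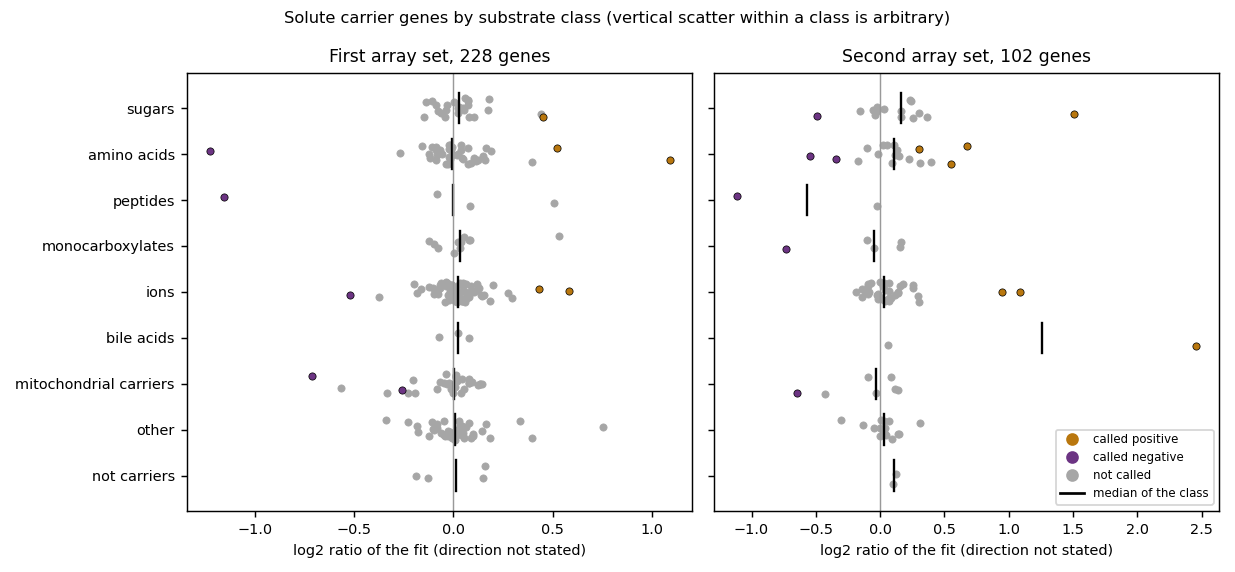
Log2 ratio (horizontal axis) of every solute carrier gene by substrate class, for 228 genes on the first array set (left) and 102 on the second (right). Each point is a gene, orange where called positive, purple where called negative and grey where not called, and the black line is the class median. Most genes lie close to 0, and the bile acid carrier SLC10A1 (2.46) and the sugar carrier SLC2A8 (1.51) are farthest to the right on the second set.

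SLC10A1 (NTCP) imports bile acids with sodium and is best known from the liver. It had the largest ratio of all solute carrier genes on the second set, and it did not pass on the first. Its 1 probe on the second set lay at 3.86, 1.53 and 1.96 with hatched in Cy5 and at 1.81, 3.78 and 1.81 with early in Cy5. The first pair stood well above the other 4 arrays in both dye orientations. The ratio was 2.46 ± 0.37 (adjusted p = 0.00702), a 5.50-fold difference, and it stayed between 2.11 and 2.69 when 1 array was left out. On the first set its 1 probe lay at 0.70, 0.08 and 0.17 with hatched in Cy5 and at -0.27, 0.19 and -0.38 with early in Cy5, a ratio of 0.08 ± 0.11 (adjusted p = 0.786). The ranges of the 2 sets did not overlap. The other bile acid family members, SLC10A4 on the first set (0.02 ± 0.05) and SLC10A7 on both (-0.07 ± 0.09 on the first and 0.06 ± 0.06 on the second), were not called.

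Of 11 monocarboxylate carriers 0 were called on the first set, beside 4.75% of all genes. Of 5 on the second set 1 was called, beside 11.0% of all genes. The called gene was SLC16A1 (MCT1), which moves lactate, pyruvate and ketone bodies with protons. It lay at -0.86, -0.71 and -0.52 with hatched in Cy5 and at -0.68, -1.09 and -0.54 with early in Cy5 on the second set, negative on every array. The ratio was -0.73 ± 0.09 (adjusted p = 0.00346) as the mean of 7 probes, which lay between -2.23 and 0.13, and 4 of them were called on their own. The 1 probe of the first set gave -0.08 ± 0.07 (adjusted p = 0.683), with arrays from -0.42 to 0.30. Basigin (BSG), the chaperone that carries SLC16A1 to the membrane, lay at -0.04 ± 0.06 on the second set (adjusted p = 0.756), and the lactate exporter SLC16A3 at -0.05 ± 0.10 (adjusted p = 0.842).

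Ion transporters were the largest class. Of 69 genes on the first set 2 were called positive and 1 negative, beside 4.75% of all genes called. Of 36 on the second set 2 were called positive, beside 11.0% of all genes called. Both calls of the second set are zinc exporters of the SLC30 family. SLC30A2 (ZnT2), which loads zinc into vesicles, lay at 1.15, 1.53 and 0.47 with hatched in Cy5 and at 1.51, 1.16 and 0.69 with early in Cy5. The values of the third pair were lowest, and the ratio was 1.09 ± 0.15 (adjusted p = 0.00608). Its probes lay at 1.44 and 0.73, that at 0.73 uncalled. SLC30A7 (ZnT7), which loads zinc into the Golgi, lay at 1.23, 0.37 and 1.80 with hatched in Cy5 and at 0.35, 0.76 and 1.19 with early in Cy5, with the second pair lowest. Its ratio was 0.95 ± 0.19 (adjusted p = 0.0189), from probes at 1.31 and 0.59, that at 0.59 uncalled. Its call ended without any 1 of the 4 arrays outside the second pair (adjusted p from 0.0549 to 0.0732), and the 1 probe of the first set gave 0.10 ± 0.07 (adjusted p = 0.530).

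The other 7 SLC30 genes on the second set were not called, and no SLC30 gene was called among 7 on the first, where the zinc exporter of the plasma membrane SLC30A1 lay at 0.30 ± 0.08 (adjusted p = 0.0819). Of the zinc importers of family SLC39 none was called among 11 on the first set and 4 on the second. The counts of both families stand beside 4.75% of all genes called on the first set and 11.0% on the second. SLC39A7, which releases zinc from the endoplasmic reticulum, lay at 0.30 ± 0.08 on the second set (adjusted p = 0.0659). Its probes there lay at 1.15, 0.12, 0.07 and -0.14, and the first set gave 0.02 ± 0.08 (adjusted p = 0.923). The zinc-binding metallothionein MT1A, from the list of partners of carriers, lay at 1.11 ± 0.13 on the second set (adjusted p = 0.00292).

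SLC13A5, the sodium-coupled citrate importer, was called on the first set, at 0.43 ± 0.05 (adjusted p = 0.00788), with arrays from 0.30 to 0.67. Of its 3 probes 1 lay at 1.15 and the others at 0.0874 and 0.0492, and with the median of the probes the ratio was 0.10 (adjusted p = 0.569). The sulfate transporter SLC26A11 lay at 0.58 ± 0.12 (adjusted p = 0.0433) as the mean of probes at 1.28 and -0.12, neither called on its own. Its call ended without any 1 of the 4 arrays outside the second pair (adjusted p from 0.138 to 0.156), and it lay at 0.03 ± 0.07 on the second set (adjusted p = 0.828). The phosphate importer SLC34A2 lay at -0.68, -0.38 and -0.30 with hatched in Cy5 and at -0.49, -0.78 and -0.49 with early in Cy5 on the first set. Its ratio there was -0.52 ± 0.07 (adjusted p = 0.0106), against -0.01 ± 0.09 on the second set (adjusted p = 0.980), each by 1 probe.

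The sodium-proton exchangers of family SLC9 and the bicarbonate transporters of family SLC4, which move ions across epithelia, held no called gene on either set. By family number SLC9 had 8 genes on the first set and 4 on the second, and SLC4 had 7 and 4. These counts include SLC9A3R1, SLC9A3R2 and SLC4A1AP where measured, and stand beside 4.75% and 11.0% of all genes called. SLC9A8 lay at -0.37 ± 0.12 on the first (adjusted p = 0.148) and SLC4A2 at 0.25 ± 0.07 on the second (adjusted p = 0.0599).

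**Figure D3:**
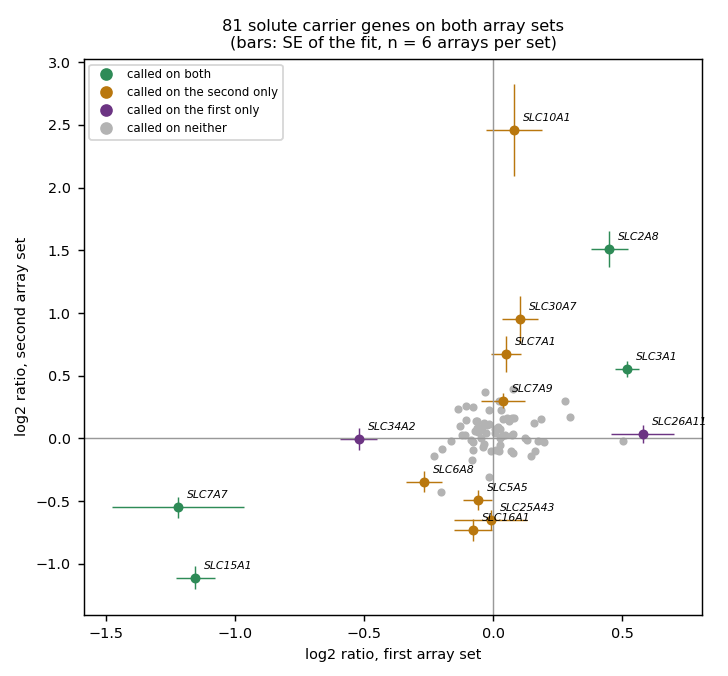
Log2 ratio of the first array set (horizontal axis) against that of the second (vertical axis) for the 81 solute carrier genes on both, with bars for the SE of the fit where a gene was called (n = 6 arrays per set). SLC15A1, SLC7A7, SLC3A1 and SLC2A8 (green) were called on both sets, each on the same side, while SLC10A1 lies at 2.46 on the second set and 0.08 on the first.

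Of 30 mitochondrial carriers on the first set 2 were called, both negative, where 2.38% of all genes were called negative. Of 7 on the second set 1 was called, also negative, where 5.72% of all genes were called negative. SLC25A5 (ANT2) exchanges ATP for ADP across the inner mitochondrial membrane. It lay at -0.73, -0.32 and -0.42 with hatched in Cy5 and at -0.66, -1.37 and -0.75 with early in Cy5 on the first set, where early-Cy5 array 2 was well below the rest. The ratio was -0.71 ± 0.11 (adjusted p = 0.0135), with adjusted p = 0.0565 and 0.0531 without hatched-Cy5 arrays 1 and 3. The related SLC25A4 (ANT1) lay at -0.57 ± 0.17 (adjusted p = 0.132), positive only on hatched-Cy5 array 2. ANT3, encoded by SLC25A6 and measured on the second set only, lay at -0.03 ± 0.06 (adjusted p = 0.793). SLC25A32, which carries folate and flavin nucleotides into mitochondria, lay at -0.42 ± 0.13 on the second set (adjusted p = 0.0787) and at -0.20 ± 0.07 on the first (adjusted p = 0.219). Its probes lay at -0.84 and -0.01 on the second set and from -0.78 to 0.13 on the first.

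The pyrimidine nucleotide carrier SLC25A33 was called at -0.26 ± 0.05 (adjusted p = 0.0432) on the first set. Its arrays split by dye, with -0.61, -0.42 and -0.36 for hatched in Cy5 and -0.08, -0.07 and -0.03 for early in Cy5, and the call ended when any 1 array was left out (adjusted p up to 0.164), without the dye term and with the pairs as a random block (0.111). SLC25A43, a carrier of unknown substrate, was called negative on the second set, with -0.84, -0.44 and -0.41 for hatched in Cy5 and -0.71, -0.90 and -0.60 for early in Cy5 and a ratio of -0.65 ± 0.08 (adjusted p = 0.00380). Its 4 probes lay at -1.29, -1.20, -0.151 and 0.0401. The first set gave -0.01 ± 0.14 (adjusted p = 0.982).

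SLC25A3, the phosphate carrier that supplies ATP synthesis, was singled out after its values were seen. On the first set it lay at -1.07 and -1.09 on the first pair (hatched-Cy5 array 1 and early-Cy5 array 2), at 1.12 and 1.06 on the second pair and at -0.52 and 0.01 on the third. On the second set it lay at -1.13 and -1.26, at 1.12 and 1.07 and at -0.16 and -0.21 on the same pairs. The first and the second pair thus lay on opposite sides of 0 by about the same size on both sets, and the mean over arrays was -0.08 ± 0.34 (adjusted p = 0.939) and -0.09 ± 0.35 (adjusted p = 0.911). The pair means were below 0 on the first pair for 3 of 3 probes on the first set and 9 of 10 on the second, and above 0 on the second pair for 3 of 3 and 10 of 10.

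Other members whose ratio rested on 1 array were found on the first set. The peptide transporter SLC15A2 lay at 3.44 on hatched-Cy5 array 3 and between -0.24 and 0.06 on the other 5 arrays. SLC16A4, an orphan of the monocarboxylate family, lay at 3.13 on the same array and between -0.23 and 0.24 on the others. SLC45A1, a sugar carrier of the brain, lay at 2.60 there and between -0.18 and 0.13 on the others. Without that array the ratio of SLC15A2 was -0.10 and that of SLC45A1 -0.01. None of the 3 was called, and SLC15A2 lay at -0.02 ± 0.06 on the second set.

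**Figure D4:**
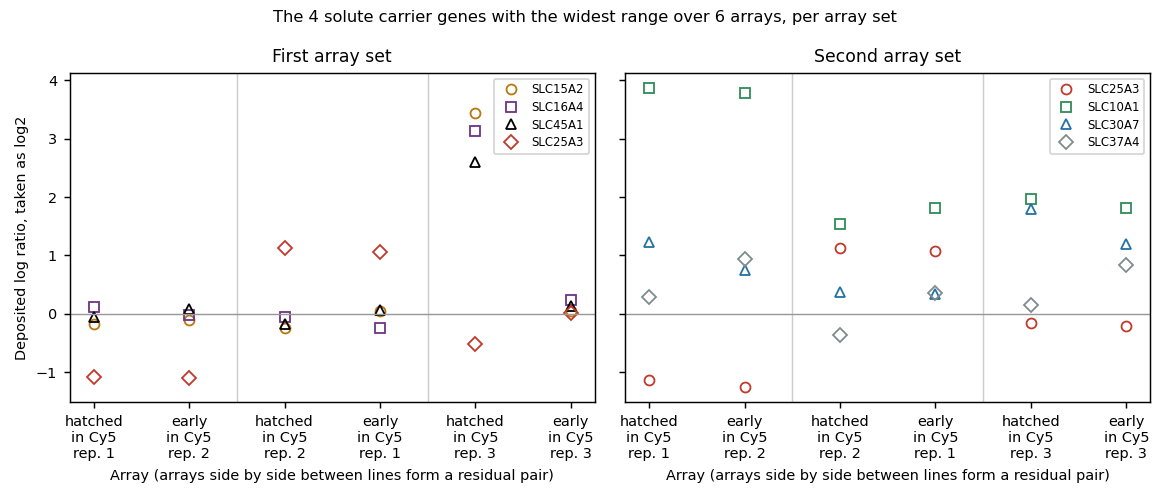
Deposited log ratio (vertical axis) on each array (horizontal axis, paired arrays side by side) of the 4 solute carrier genes with the widest range on each array set. SLC25A3 lies between -1.26 and -1.07 on the first pair and between 1.06 and 1.12 on the second pair of both sets, and SLC15A2, SLC16A4 and SLC45A1 stand out on hatched-Cy5 array 3 of the first set alone.

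The remaining families carry nucleosides, nucleotide sugars, organic ions, fatty acids, vitamins, choline and urea. With limma 0 of their 41 genes were called on the first set (4.75% of all genes) and 0 of 15 on the second (11.0%). The smallest p-values were those of the fatty acid transport protein SLC27A4 (0.40 ± 0.09; adjusted p = 0.0535), positive on all 6 arrays, and of the lysosomal nucleoside exporter SLC29A3. The probes of SLC27A4 lay at 1.04, 0.32, 0.14 and 0.09, with only that at 1.04 called. SLC29A3 lay at 0.30, -0.55 and 0.82 with hatched in Cy5 and at 0.93, 1.58 and 1.42 with early in Cy5, a ratio of 0.75 ± 0.17 (adjusted p = 0.0577). On the second set the folate importer SLC19A1 lay at 0.31 ± 0.08 (adjusted p = 0.0568) and the ascorbate importer SLC23A2 at -0.31 ± 0.12 (adjusted p = 0.177). Among the genes that are not carriers none was called, with SLC7A6OS at 0.15 ± 0.05 and SLC4A1AP at -0.19 ± 0.08 on the first set.

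Of the 81 genes on both sets 4 (4.94%) were called on both and on the same side, against 2.83% of the 3817 genes shared by the sets. A further 8 (9.88%) were called on the second set alone, against 8.30% of the shared genes, and 2 (2.47%) on the first alone, against 3.27%. At a log2 ratio of at least 1 in size, 3 of 228 solute carrier genes were called on the first set (SLC15A1, SLC7A7 and SLC36A2). Of all 11913 genes 1.11% were. On the second set 4 of 102 were called at that size (SLC10A1, SLC2A8, SLC15A1 and SLC30A2), against 1.70% of all 4531 genes.

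**Figure D5:**
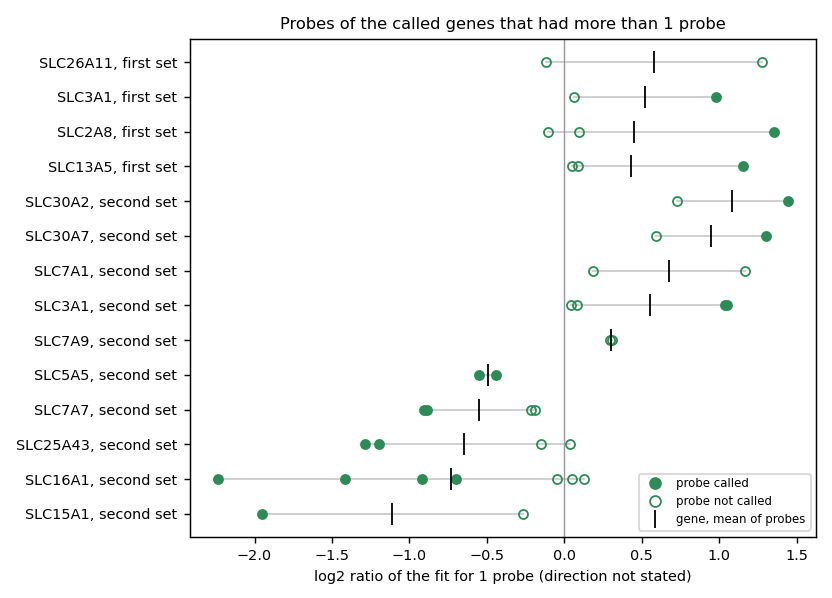
Log2 ratio (horizontal axis) of each probe of the called genes that had more than 1 probe, with filled circles for probes called on their own over all probes of the set and black ticks for the mean used for the gene. The probes of SLC5A5 and SLC7A9 lie together, while those of SLC16A1 spread from -2.23 to 0.13 and those of SLC2A8 on the first set from -0.10 to 1.35.

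A list of partners of carriers was read beside them: subunits of the sodium pump that drives many of them, chaperones and kinases of carriers, zinc-binding and amino acid response genes. Of 31 measured on the first set 3 were called positive and 1 negative, beside 4.75% of all genes called there, and of 18 on the second 3 and 2, beside 11.0% of all genes. The sodium pump subunit ATP1B1 was negative on both sets (-0.38 ± 0.07 and -0.81 ± 0.10; adjusted p = 0.0333 and 0.00334). FXYD4, a regulator of the pump, lay at 1.02 ± 0.08 on the first set, and the pump subunit ATP1B2 at 0.06 ± 0.07 (adjusted p = 0.749). Among amino acid response genes, ASNS, which makes asparagine, lay at 2.90 ± 0.30 on the first set, and the stress factor DDIT3 at 0.94 ± 0.18 and 0.44 ± 0.07 (adjusted p = 0.0330 and 0.00958). The response genes ATF4, CHAC1 and TRIB3 were not called. ATF4 lay at 0.09 ± 0.09 on the first set and -0.07 ± 0.05 on the second. CHAC1 lay at 0.03 ± 0.08 and TRIB3 at 0.03 ± 0.06 on the first set. The glutamine synthetase gene GLUL lay at 0.49 ± 0.12 on the first set without passing and at 0.43 ± 0.06 on the second (adjusted p = 0.00663), and OXSR1, a kinase of cation-chloride cotransporters, at -0.24 ± 0.06 on the second (adjusted p just under 0.05). The calls of ATP1B1 and DDIT3 on the first set and of OXSR1 ended in at least 5 of the 6 fits with 1 array left out.

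ABC transporters, another large group of membrane transporters, had 1 called gene of 22 on the first set and 2 of 13 on the second, all positive. Their median ratios were 0.0621 and 0.0620. SLCO organic anion transporters had 1 positive call of 8 and 0 of 2, and the SLC35 genes of subfamilies B to F, which the symbol pattern leaves out, 0 of 17 and 1 of 5. For all genes the calls came to 4.75% on the first set (2.38% positive) and 11.0% on the second (5.27% positive).

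Markers of embryonic lineages and of other cells were read on the same arrays. Their counts stand beside 4.75% of all genes called on the first set and 11.0% on the second. Trophectoderm genes were called positive in 4 of 11 on the first set, with list means over arrays from 0.10 to 0.67, and in 3 of 8 on the second, where 2 were negative and the means ran from -0.11 to 0.52. Inner cell mass genes had 0 positive and 1 negative call of 7 on the first set and 2 and 1 of 7 on the second. Hypoblast genes had 2 positive calls of 5 on the first and 1 negative of 2 on the second. No marker of sperm, of blood and immune cells or of the uterine and oviduct lining was called on either set (4, 5 and 9 measured on the first and 6, 4 and 7 on the second), and 1 of 5 cumulus and granulosa markers was positive on the second (0 of 6 on the first). The part of these cells in the ratios of solute carrier genes was not tested.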

How the data were processed

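Two-colour ratios of 12 Agilent arrays were used. RNA was isolated with PicoPure, amplified with a RiboAmp kit and coupled to Cy3 or Cy5 by ULS chemistry, per the labels' protocols, and an amplification can alter the ratio of single transcripts. The deposited log2 values hold 1 log ratio of the channels per probe. For base, scanner, background correction, normalization and numerator the labels give nothing, and the base was taken from the width of the second set's values (-12.7 to 12.2). Arrays with hatched in Cy5 are written to up to 10 significant digits and those with early in Cy5 to 6. Between the sets, the part of the ratio common to all arrays correlated more closely (r = 0.49 over 3817 genes) than the part that follows the dye (r = 0.18). The values were used as they stand, with the part common to all arrays read as the stage ratio. These correlations cannot settle that reading, since a dye effect particular to a gene could also repeat between the sets. Every call rests on that reading, which was not tested. Array medians lay between -0.0061 and 0.0105, and the number of arrays limits the precision.

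Probe names came from the platform annotation at GEO, 18121 of 43794 on the first set and 10290 of 45220 on the second with 1 symbol, 0 with several and the rest unnamed. Symbols were updated through a RefSeq gene table of Sscrofa11.1, by accession (2658 of 4740 and 6055 of 10193 matched), by gene number of a LOC symbol (576 and 173) and by synonym (241 and 70). On the 2 sets 2 and 6 genes gained a solute carrier symbol only through this update. They were not counted as members, and none was called. A probe named SLC44A4 whose accession belongs to DPM1 was left to DPM1. No sequence or coordinate was used.

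Probes of a symbol were averaged per array. Each set had a fit of its own by limma (version 3.58.1, under R 4.3.3) with a stage and a dye term, 2-sided, adjusted by Benjamini-Hochberg over all named genes. The fit was also run on simulated data with independent noise on each array. Those data lack the correlation within pairs, so they cannot vouch for the calls. Named are called members, the 2 smallest p-values of a class without a call, the 6 largest uncalled ratios per set and called partners, others after their values were seen. Members and lists were chosen with earlier results of these data known. Other settings tried were 16 listed beforehand (dye term, centring, scaling, probe summary, symbol update, empirical Bayes, slide, pairs and leaving out each array) and 1 added after seeing the data, leaving out the second pair.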

Additional observations from a re-analysis of the deposited data

Results flagged for a closer look

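The ratio of 2 solute carrier genes differed between the dye orientations on the first array set, by the dye term of the limma fit. SLC12A5, a potassium-chloride cotransporter of neurons, averaged -0.70 with hatched in Cy5 and 0.87 with early in Cy5, a difference of -1.57 (adjusted p = 0.0256), with 3 of 3 arrays below 0 and 3 of 3 above it. SLC34A3, a phosphate importer of the kidney, averaged -0.52 with hatched in Cy5 and 0.45 with early in Cy5, a difference of -0.96 (adjusted p = 0.0422), again with 3 of 3 arrays on either side. Their stage ratios were 0.09 and -0.03 and did not pass (adjusted p = 0.662 and 0.863). Of all genes 0.991% had such a dye term on the first set, and 0.00% on the second.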

How the results depend on the processing

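Counts of calls are given for solute carrier genes on the first and second set, then for all genes on both, where the main fit gave 10 and 13, and 566 and 498. They came to 27 and 26, and 1777 and 1036, with the slide as a random block, whose estimated correlation was negative (-0.19 and -0.17). They came to 4 and 6, and 243 and 210, on the slide that holds 4 arrays, to 0 and 0, and 0 and 4, with limma on averages of the residual pairs (19 and 23 solute carrier genes at an unadjusted p under 0.05), and to 18 and 21, and 1166 and 785, without the second pair. With 1 array left out they ran from 5 to 11 and from 9 to 19, and for all genes from 197 to 610 and from 255 to 578. Several of these settings used fewer arrays, the fit without the second pair among them, and the cause of the changes was not tested. No called solute carrier gene turned its side in any setting. All 6 arrays of each lay on 1 side of 0, so settings that leave out or average arrays could not have turned it. Of uncalled genes near 0, SLC25A43 on the first set lay at 0.000776 with the slide as a block, 0.0213 on the slide of 4 arrays and 0.24 without the second pair, where SLC16A1 on the first set lay at 0.00337 and SLC34A2 on the second at 0.0767. With 1 array left out the first set gave -0.0142 to 0.14 for SLC10A1, -0.10 to 0.82 for SLC15A2, -0.0809 to 0.0185 for SLC23A2, -0.0993 to 0.12 for SLC25A43, -0.0125 to 0.68 for SLC45A1 and -0.0263 to 0.10 for SLC7A9. The second gave -0.00975 to 0.0860 for SLC26A11 and -0.0841 to 0.0460 for SLC34A2. No paired analysis by replicate number was possible because the labels carry none. Signal over background is unknown, so dim probes could not be told from bright ones.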
